A study of Homo sapiens with 6 samples.

Results

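The genes described here encode 10 enzymes that reduce or oxidise carbonyl groups in A549 cells: the aldo-keto reductases AKR1A1, AKR1B1, AKR1B10, AKR1C1, AKR1C2, AKR1C3 and AKR7A2, the carbonyl reductase CBR1, and the aldehyde dehydrogenases ALDH1A1 and ALDH3A1. They were chosen by symbol, each symbol matched 1 row of the count table, and they make 10 of its 57773 genes. All 10 passed the filter on low counts, which left 15848 genes. RNA was measured by sequencing of poly(A) RNA in 2 groups of 3 samples. The rhSP-D group was A549 cells exposed for 48 h to recombinant human surfactant protein D at 10 µg/ml, and the vehicle group received the buffer that the protein is eluted in, at equal volume and for the same 48 h. A549 is a single human line of lung adenocarcinoma, here grown in RPMI-1640 with fetal bovine serum, so every sample shares the genotype of that line. Surfactant protein D is a secreted collectin of the airspace.

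Aldo-keto reductases are cytosolic enzymes that use NADPH to turn aldehydes and ketones into alcohols, and carbonyl reductases of the short-chain family do the same with a different protein fold. Aldehyde dehydrogenases remove aldehydes in the other direction, by oxidising them to acids. Many of these genes are targets of NRF2, a transcription factor that KEAP1 holds in check, and A549 is known for a KEAP1 mutation that leaves NRF2 active, with high levels of these enzymes.

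The libraries held 26030880, 18599955 and 20232050 counts in rhSP-D replicates 1, 2 and 3 and 11396193, 17760075 and 19803697 counts in vehicle replicates 1, 2 and 3. Vehicle replicate 1, the shallowest library, stood apart on the first principal component, at -38.2 against 3.59 to 12.3 for the others, and its effect on each of the 10 genes is given beside that gene. The labels give the cell type as alveolar basal epithelial. Of the epithelial markers KRT8, KRT18 and CDH1 were abundant, whereas EPCAM and KRT19 were scarce, at 1.99 and 1.53 CPM (counts scaled to a common library size with TMM factors) in rhSP-D and 1.82 and 1.83 CPM in vehicle. The 5 alveolar type II markers, SFTPC, SFTPB, SFTPA1, NKX2-1 and LAMP3, summed to 0.201 to 0.469 CPM in rhSP-D and 0.260 to 0.746 CPM in vehicle, and the airway basal markers TP63 and KRT5 to at most 1.28 CPM in any library, so both sets were scarce. The label does not name airway basal cells. KRT18 rose by 3.45% (edgeR adjusted p = 0.0131), a change of the same size as the smallest call among the 10 genes, and the other 4 epithelial markers did not pass. Of the leukocyte markers CD68, a lysosomal protein also made by other cells, was at 92.4 ± 2.78 CPM in rhSP-D and 84.4 ± 3.21 CPM in vehicle (SD, n = 3) and rose by 8.94% (edgeR adjusted p = 0.0161), while PTPRC and LYZ averaged under 0.03 CPM in both groups. The 3 together summed to 89.5 to 95.2 CPM in rhSP-D and 80.8 to 86.5 CPM in vehicle. The endothelial markers VWF and CDH5 summed to at most 0.117 CPM in rhSP-D and 0.0558 CPM in vehicle. The 4 fibroblast markers, nearly all COL1A1, with DCN at 0, summed to 11.2 to 13.2 CPM in rhSP-D and 9.54 to 13.3 CPM in vehicle. The part of these markers in the results was not tested.

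The AKR1C genes are near copies of each other, which limits what their separate counts can say, and their sequences are shown for that reason. AKR1C1, AKR1C2 and AKR1C3 lie within 144.4 kb of chromosome 10. In GENCODE 29 (GRCh38) the coding sequences of AKR1C1 and AKR1C2 are 969 nt long and differ at 19 positions, an identity of 98.0%, and their longest identical stretch is 186 nt. AKR1C3 was 91.4% identical to AKR1C1 and 91.0% identical to AKR1C2. Of the 19 differences 10 fall within 90 nt, coding bases 73 to 162 counted from the A of the start codon. This is that stretch in the 3 genes, with capitals at the 19 positions where the 3 are not all alike:
AKR1C1: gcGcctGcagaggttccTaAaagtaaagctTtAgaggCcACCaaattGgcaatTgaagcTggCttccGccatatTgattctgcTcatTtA
AKR1C2: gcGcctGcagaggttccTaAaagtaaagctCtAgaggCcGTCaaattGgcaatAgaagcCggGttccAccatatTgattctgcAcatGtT
AKR1C3: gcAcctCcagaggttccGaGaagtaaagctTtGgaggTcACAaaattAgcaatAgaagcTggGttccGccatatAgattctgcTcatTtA

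Elsewhere the pair has fewer differences. Of all windows of 100 nt in the coding sequence, 18.9% were found unchanged in both AKR1C1 and AKR1C2, and of windows of 50 nt, 51.6%. Windows outside the coding sequence, where most of the exonic length of the pair lies, were not compared. For AKR1B10 the share found in any other gene was 3.53% of 100-nt windows, mostly in AKR1B15 and a processed pseudogene, and for AKR7A2 it was 0.511%. AKR1A1, AKR1B1 and ALDH1A1 had no 100-nt window in common with another gene. The sources used here give neither the read length, nor the strand setting, nor how reads that map to several places were treated.

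Promoters, from 250 bases before to 50 bases after the start site, were found in RefSeq (GRCh38.p14) for 8 of the 10 genes, and not for AKR1B10 and ALDH3A1. A core of the antioxidant response element, the DNA motif that NRF2 binds with small MAF proteins, was searched as TGACNNNGC on both strands. CBR1 held 1 match and AKR7A2 held 3, so 2 of 8 promoters had it, beside 13.3% of 35116 promoters of that length. The CCAAT box was in 5 of 8, those of AKR1B1, AKR1C1, AKR1C2, AKR1C3 and ALDH1A1, beside 34.6% of all. The 2 motifs did not overlap in these promoters. A match is no evidence of binding, and these windows leave out more distant elements. The promoters of 4 of the genes that were higher in rhSP-D are printed on the sense strand of each gene, with matches in capitals: AKR1B1 (CCAAT; chr7:134459051-134459350, minus strand), CBR1 (antioxidant core on the opposite strand; chr21:36069774-36070073, plus strand), AKR1C1 (CCAAT on the opposite strand; chr10:4963165-4963464, plus strand) and AKR1C2 (the same; chr10:5003808-5004107, minus strand). RefSeq places the start of each of these 4 genes inside the span that GENCODE gives it, with AKR1C2 farthest inside.
AKR1B1: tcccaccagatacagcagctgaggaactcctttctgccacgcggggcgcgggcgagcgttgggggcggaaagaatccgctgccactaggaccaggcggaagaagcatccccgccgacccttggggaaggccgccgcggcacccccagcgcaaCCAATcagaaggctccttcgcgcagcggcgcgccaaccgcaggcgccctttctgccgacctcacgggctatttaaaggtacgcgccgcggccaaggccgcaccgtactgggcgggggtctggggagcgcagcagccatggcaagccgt
CBR1: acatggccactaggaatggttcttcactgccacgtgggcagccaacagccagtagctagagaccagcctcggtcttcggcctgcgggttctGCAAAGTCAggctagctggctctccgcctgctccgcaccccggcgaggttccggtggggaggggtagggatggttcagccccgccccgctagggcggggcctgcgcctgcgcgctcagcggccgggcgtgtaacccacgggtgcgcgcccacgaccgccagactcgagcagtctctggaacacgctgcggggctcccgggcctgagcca
AKR1C1: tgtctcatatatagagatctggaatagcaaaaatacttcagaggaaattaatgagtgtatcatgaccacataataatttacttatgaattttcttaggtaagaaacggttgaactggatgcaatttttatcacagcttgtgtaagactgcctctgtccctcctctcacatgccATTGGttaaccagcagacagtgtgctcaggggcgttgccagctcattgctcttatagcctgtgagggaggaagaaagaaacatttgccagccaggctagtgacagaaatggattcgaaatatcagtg
AKR1C2: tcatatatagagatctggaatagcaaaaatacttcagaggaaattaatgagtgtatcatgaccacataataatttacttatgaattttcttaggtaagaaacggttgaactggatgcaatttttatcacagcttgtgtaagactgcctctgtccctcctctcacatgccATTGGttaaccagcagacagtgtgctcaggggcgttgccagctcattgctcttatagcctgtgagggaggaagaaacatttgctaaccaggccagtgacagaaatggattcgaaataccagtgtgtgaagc

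The AKR1C1 and AKR1C2 promoters were 98.6% identical over 292 aligned bases, against 77.3% between AKR1C1 and AKR1C3 over 291. The near identity of the pair thus extends from the coding sequence into the promoter.

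These enzymes were among the abundant transcripts of A549. By vehicle CPM, ALDH1A1 ranked 6 among 15848 genes, AKR1C2 ranked 32, AKR1B1 ranked 52, AKR1B10 ranked 55, AKR1C3 ranked 74, ALDH3A1 ranked 161 and AKR1C1 ranked 224. CBR1, AKR1A1 and AKR7A2 ranked 1025, 2975 and 4391. The 10 genes took 1.49 to 1.51% of counts in rhSP-D and 1.49% in each vehicle library, shares of the unscaled counts in which the groups overlapped.

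Levels of different genes were compared per kilobase of merged exons. ALDH1A1 was highest, at 2239 ± 30.5 CPM per kb in rhSP-D and 2229 ± 8.57 CPM per kb in vehicle (SD, n = 3). AKR1B10 followed at 892 ± 5.27 in rhSP-D and 914 ± 8.40 in vehicle, then AKR1B1 at 544 ± 5.75 in rhSP-D and 456 ± 2.98 in vehicle, all in CPM per kb. AKR1C2, AKR1C3, ALDH3A1, CBR1 and AKR1C1 came next, the last at 66.1 ± 1.49 CPM per kb in rhSP-D and 57.97 ± 0.994 CPM per kb in vehicle. AKR7A2, at 24.8 ± 1.83 CPM per kb in rhSP-D and 25.03 ± 0.816 CPM per kb in vehicle, and AKR1A1, at 22.9 ± 0.712 CPM per kb in rhSP-D and 21.5 ± 1.21 CPM per kb in vehicle, were the lowest. Their rhSP-D ranges overlapped, at 22.7 to 26.0 and 22.2 to 23.6 CPM per kb, and no other neighbours in this order overlapped within either group. The order depends on the length chosen. The merged exons of AKR1C1 (8765 nt) and AKR1C2 (6461 nt) reach far past their coding sequence. Those of AKR1B1 (3660 nt) are longer than those of AKR1B10 (1744 nt). Per kilobase of coding sequence AKR1C2 moved to second place, at 2531 ± 15.5 CPM per kb in rhSP-D and 2453 ± 31.9 CPM per kb in vehicle, and AKR1C1 moved above ALDH3A1 and CBR1. By that length AKR1B1 stood above AKR1B10, at 2101 ± 22.2 against 1641.5 ± 9.70 CPM per kb in rhSP-D. In vehicle they were at 1762 ± 11.5 and 1682 ± 15.4 CPM per kb. AKR1A1 likewise stood above AKR7A2, at 73.4 against 40.9 CPM per kb in rhSP-D and 68.7 against 41.4 in vehicle.

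After rhSP-D, 5 of the 10 genes were higher and 0 were lower by edgeR's quasi-likelihood test with Benjamini-Hochberg adjustment over all 15848 genes (adjusted p under 0.05). AKR1B1, the aldose reductase, rose by 19.2% and AKR1C1, a 20-alpha-hydroxysteroid dehydrogenase, rose by 14.1%. CBR1 rose by 8.15%, ALDH3A1 by 4.32% and AKR1C2 by 3.19%. ALDH1A1, AKR1C3, AKR7A2, AKR1A1 and AKR1B10 did not pass. Over all genes tested 9.31% were higher and 6.63% lower, 15.9% in all. In bulk RNA, a change in the share of cells that express a gene and a change in RNA per cell cannot be told apart. Calls were more frequent among abundant genes. Of 1901 genes with a mean of 100 CPM or more, a limit set after the values were seen, 51.4% were called, 38.9% higher and 12.5% lower, and 8 of the 10 genes are in that range, the 5 that rose among them. The 5 of 8 that rose stand beside that 38.9%, and no excess over it was tested. Scaling matters for changes this small. The TMM factors split by group, at 0.985 to 0.987 in rhSP-D and 1.011 to 1.017 in vehicle. With library totals in place of TMM factors the median over all genes was -0.047 on the log2 scale. Of all calls 30.4% were then higher, against 58.4% as reported, and 2 of the 10 genes, AKR1B1 and AKR1C1, were higher. After the length and GC correction 74.8% of calls were higher. The median log2 change of the 10 genes was 0.053, beside -0.0063 over all genes tested, and no median was taken over abundant genes alone. At an unadjusted p under 0.05 edgeR had 6 of the genes higher and 1 lower, beside 4453 of all 15848 genes tested in either direction. At an adjusted p under 0.05 DESeq2 called 5 higher and 0 lower, and limma-voom 5 higher and 1 lower, AKR1B10. Over all 15848 genes tested, DESeq2 called 988 higher and 510 lower, and limma-voom 1480 higher and 1093 lower.

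**Figure D1:**
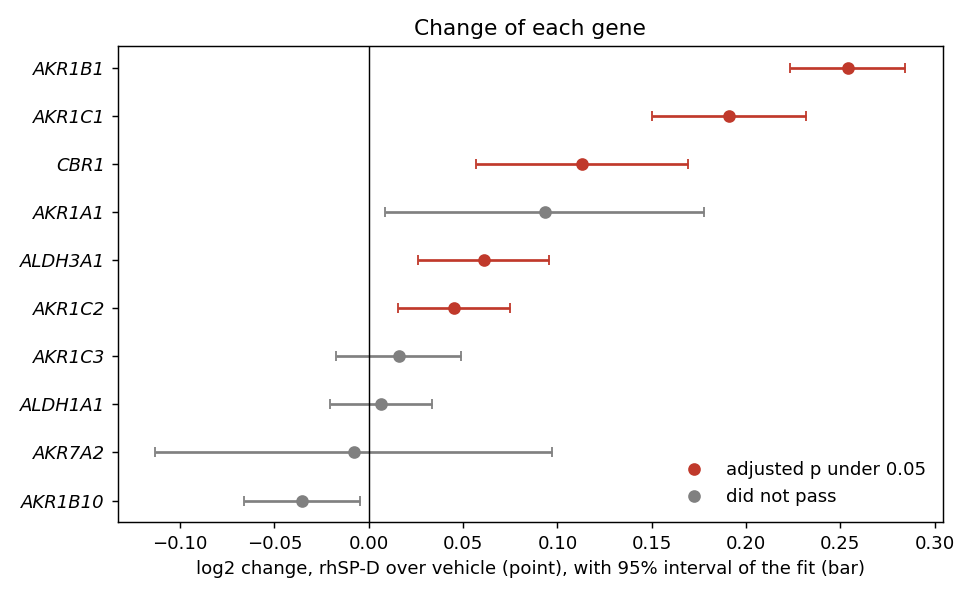
Log2 change of each of the 10 genes, rhSP-D over vehicle, with the 95% interval of the edgeR fit (3 samples a group). Red points passed at an adjusted p under 0.05. AKR1B1 and AKR1C1 lie highest, at 0.25 and 0.19, and AKR1B10 is lowest, at -0.036.

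The AKR1B genes sit side by side on chromosome 7, with 68.3 kb between AKR1B1 (ENSG00000085662, 134442350 to 134459284, minus strand) and AKR1B10 (ENSG00000198074, 134527592 to 134541408, plus strand). AKR1B1 reduces glucose to sorbitol in the polyol pathway and also clears lipid aldehydes. It was measured at 1990, 1971 and 2013 CPM in rhSP-D and at 1667, 1682 and 1662 CPM in vehicle. Every rhSP-D sample lay above every vehicle sample, by a gap far wider than the spread within either group. Its log2 change was 0.25 ± 0.015 (SE, edgeR adjusted p = 1.92e-12), a rise of 19.2% with a 95% interval from 16.8% to 21.8%, and its p ranked 2 among all 15848 genes. That rank does not measure the size of the change, as log2 changes over all genes tested ran from -6.89 to 3.10. AKR1B1 passed under all 20 alternatives run, at log2 changes from 0.19 to 0.26, and was at 0.25 without vehicle replicate 1.

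AKR1B10 reduces retinaldehyde and other aldehydes, and its RNA is known to be high in smokers' airways and in lung cancer. AKR1B10 was counted at 1558, 1546 and 1564 CPM in rhSP-D and at 1583, 1611 and 1590 CPM in vehicle. The rhSP-D samples all lay below the vehicle samples, but the difference was small. The fitted log2 change was -0.036 ± 0.015 (SE, edgeR adjusted p = 0.110), and the 95% interval ran from -4.49% to -0.335%, with a log2 change of -0.039 without vehicle replicate 1. It did not pass. It passed with limma-voom (adjusted p = 0.0319), with library totals alone (log2 change -0.077, adjusted p = 3.31e-04) and after each correction for gene length and GC content (log2 changes -0.062 to -0.070, adjusted p = 0.00139 to 0.00807).

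The ratio of AKR1B1 to AKR1B10 counts, which does not depend on how libraries are scaled, was 1.28, 1.27 and 1.29 in rhSP-D and 1.05, 1.04 and 1.05 in vehicle. The groups did not overlap, and the exact permutation test gave p = 0.1 (2-sided), the smallest p that 3 against 3 allows. This separation was fixed by the results of both genes, since AKR1B1 was higher and AKR1B10 lower in every rhSP-D sample. The test therefore adds no support. The same p was found for each of 6 sums and ratios of this kind, and adjustment over the 6 leaves it at 0.1. AKR1B1 and AKR1B10 are 75.9% identical in coding sequence and shared no 100-nt window. AKR1B15, which is 92.0% identical to AKR1B10, had 21.4, 21.4 and 21.9 CPM in rhSP-D and 19.3, 21.6 and 22.2 CPM in vehicle. Adding its reads to those of AKR1B10 gave a sum of 1578 ± 9.42 CPM in rhSP-D and 1616 ± 15.5 CPM in vehicle (SD, n = 3), close to AKR1B10 alone.

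**Figure D2:**
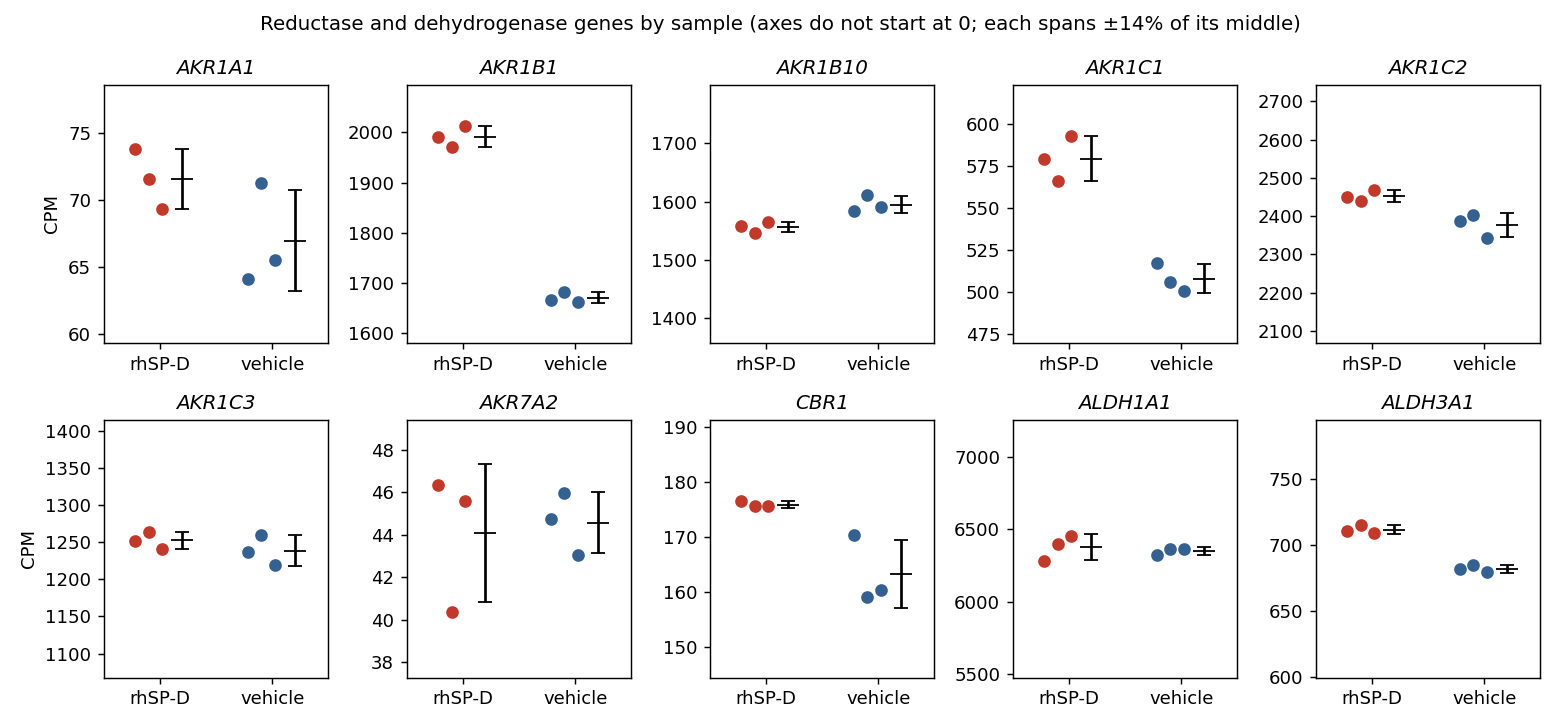
CPM of the 10 genes in each sample (points, rhSP-D left of vehicle), with the mean and SD of 3 samples (bar). Each axis spans the same relative range, ±14% of its middle, and does not start at 0. AKR1B1, AKR1C1, AKR1C2, CBR1 and ALDH3A1 are higher in every rhSP-D sample, and AKR1B10 is lower in every one.

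The AKR1C enzymes act on steroids, prostaglandins and the aldehydes of lipid peroxidation. AKR1C1 (ENSG00000187134, chromosome 10, 4963253 to 4983283, plus strand) inactivates progesterone. Its level was 579, 566 and 592 CPM in rhSP-D and 518, 506 and 500.5 CPM in vehicle. The groups did not overlap. The log2 change was 0.19 ± 0.020 (SE, edgeR adjusted p = 5.29e-08), with an interval of the change from 10.95% to 17.4%, and it passed under all 20 alternatives, at log2 changes from 0.15 to 0.30, with 0.20 without vehicle replicate 1.

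AKR1C2 (ENSG00000151632, chromosome 10, 4987400 to 5018031, minus strand) reduces dihydrotestosterone, and it had several times the counts of its near copy AKR1C1. AKR1C2 stood at 2450, 2439 and 2469 CPM in rhSP-D and at 2386, 2402 and 2343 CPM in vehicle. The groups did not overlap, though the gap was narrow. Its log2 change was 0.045 ± 0.015 (SE, edgeR adjusted p = 0.0308), a change with an interval from 1.09% to 5.34%. The call did not hold without vehicle replicate 1 (adjusted p = 0.0607), vehicle replicate 3 (0.190), rhSP-D replicate 1 (0.0823), rhSP-D replicate 2 (0.0564) or rhSP-D replicate 3 (0.109), at log2 changes from 0.035 to 0.049. It also ended with upper-quartile factors (adjusted p = 0.0510), a replicate block (0.0765), thinning to the shallowest library (0.148) and library totals alone (log2 change 0.0044, adjusted p = 0.874). After the length and GC correction it was at 0.13.

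AKR1C3 (ENSG00000196139, chromosome 10, 5035354 to 5107686, plus strand) makes testosterone from androstenedione and prostaglandin F2-alpha from prostaglandin H2. AKR1C3 was found at 1252, 1264 and 1241 CPM in rhSP-D and at 1237, 1260 and 1219 CPM in vehicle. The groups overlapped, and the log2 change of 0.016 ± 0.016 (SE, edgeR adjusted p = 0.581) had an interval from -1.21% to 3.46% and was 0.016 without vehicle replicate 1. It was -0.025 with library totals alone and reached 0.072 after the length and GC correction, where it passed (adjusted p = 0.00259).

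Since AKR1C1 and AKR1C2 have so much sequence in common, the sum of AKR1C1 and AKR1C2 was taken too. It was 3030, 3005 and 3061 CPM in rhSP-D and 2904, 2909 and 2843 CPM in vehicle, a change of 5.09%. AKR1C1 made up 19.1, 18.8 and 19.4% of that sum in rhSP-D and 17.8, 17.4 and 17.6% in vehicle, and the groups did not overlap (exact permutation test, 2-sided p = 0.1, the smallest possible). Whether this shift in share comes from the counting of shared reads was not tested. AKR1C4, the liver member of the cluster, had 26, 24 and 21 counts in rhSP-D and 15, 16 and 19 in vehicle, or about 1 CPM.

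**Figure D3:**
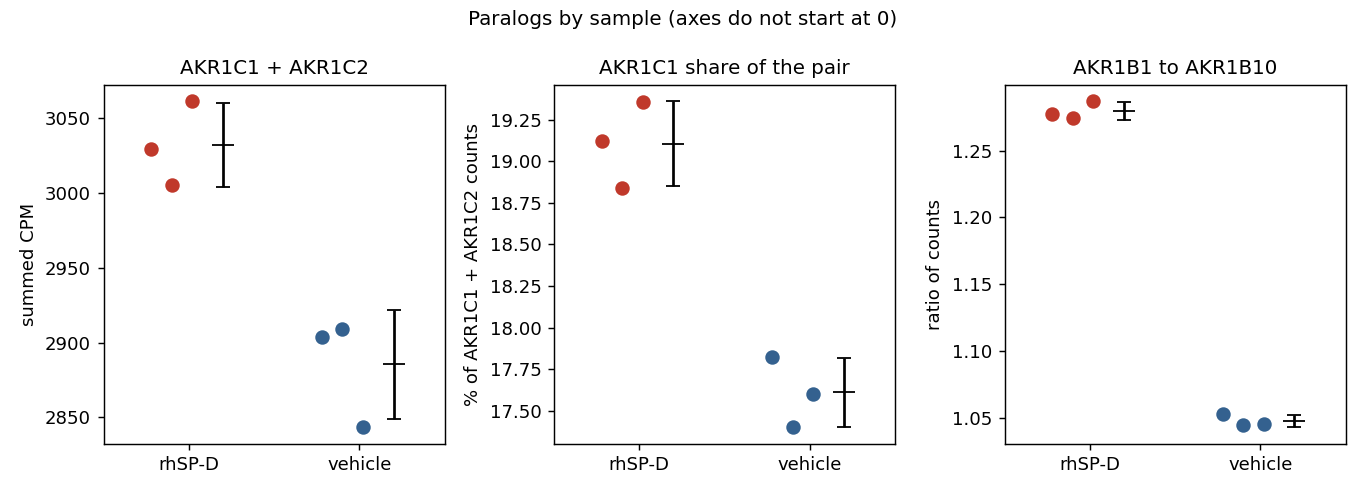
Left, summed CPM of AKR1C1 and AKR1C2. Middle, the share of AKR1C1 in the pair, in percent. Right, the ratio of AKR1B1 to AKR1B10 counts. Points are samples, rhSP-D left of vehicle, bars the mean and SD of 3, and axes do not start at 0. In all 3 plots the groups are apart, with means of 3032, 19.1% and 1.28 in rhSP-D and 2885, 17.6% and 1.05 in vehicle.

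AKR1A1, AKR7A2 and CBR1 were less abundant. AKR1A1 (ENSG00000117448, chromosome 1, 45550543 to 45570049, plus strand), the general aldehyde reductase, was measured at 73.8, 71.5 and 69.4 CPM in rhSP-D and at 64.1, 71.3 and 65.5 CPM in vehicle. Vehicle replicate 2 lay within the rhSP-D values. The fitted log2 change was 0.093 ± 0.041 (SE, edgeR adjusted p = 0.131) with an interval from 0.614% to 13.1%, and without vehicle replicate 2 it was 0.14 and passed (adjusted p = 0.0254). Without vehicle replicate 1 it was 0.071 (adjusted p = 0.328).

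AKR7A2 (ENSG00000053371, chromosome 1, 19303965 to 19312146, minus strand) reduces succinic semialdehyde and aflatoxin dialdehyde. AKR7A2 was found at 46.4, 40.4 and 45.6 CPM in rhSP-D and at 44.7, 45.95 and 43.1 CPM in vehicle. The groups overlapped, with rhSP-D replicate 2 the lowest of the 6. The log2 change was -0.0079 ± 0.051 (SE, edgeR adjusted p = 0.949), and the interval from -7.55% to 6.98% is the widest among the 10 genes. Without vehicle replicate 1 it was -0.0042. Its neighbours in sequence were scarce: AKR7A3 had 25, 20 and 15 counts in rhSP-D and 14, 8 and 21 in vehicle, and AKR7L had 30, 11 and 16 in rhSP-D and 7, 10 and 28 in vehicle.

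CBR1 (ENSG00000159228, chromosome 21, 36069941 to 36073166, plus strand) reduces quinones, prostaglandins and anthracycline drugs. CBR1 reached 177, 175.5 and 175.5 CPM in rhSP-D and 170.4, 159 and 160.2 CPM in vehicle. The groups did not overlap, with vehicle replicate 1 closest to the rhSP-D samples. Its log2 change was 0.11 ± 0.027 (SE, edgeR adjusted p = 0.00433), with an interval from 4.01% to 12.4%, and it was 0.14 without vehicle replicate 1. The call ended with library totals alone (log2 change 0.072, adjusted p = 0.0698), with thinning (0.078, adjusted p = 0.183), and after the corrections for length and GC content (0.027 to 0.073, adjusted p = 0.0930 to 0.654). Exons of the opposite-strand gene AP000688.1 overlap CBR1 over 464 of its 2450 exonic nt. That gene had 14, 2 and 3 counts in rhSP-D and 6, 2 and 11 in vehicle, against 3219 to 4521 counts of CBR1 in rhSP-D and 1969 to 3223 in vehicle, and 26.0% of the 100-nt windows of the CBR1 coding sequence lie in the overlap.

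ALDH1A1 and ALDH3A1 stand for the oxidising direction. ALDH1A1 (ENSG00000165092, chromosome 9, 72900662 to 73080442, minus strand) turns retinaldehyde into retinoic acid and is used as a marker of stem-like tumour cells. The gene was measured at 6283, 6403 and 6452 CPM in rhSP-D and at 6323, 6366 and 6365 CPM in vehicle. The vehicle values lay inside the range of the rhSP-D values. The fitted log2 change was 0.0062 ± 0.013 (SE, edgeR adjusted p = 0.815), with an interval from -1.43% to 2.33%, and 0.0044 without vehicle replicate 1. It was -0.035 with library totals alone (adjusted p = 0.0560).

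ALDH3A1 (ENSG00000108602, chromosome 17, 19737984 to 19748943, minus strand) oxidises medium-chain and aromatic aldehydes and is known from the cornea and from tumours. ALDH3A1 reached 711, 715 and 709 CPM in rhSP-D and 682, 685 and 679 CPM in vehicle. The groups did not overlap, with SDs of 3.30 CPM in rhSP-D and 3.02 CPM in vehicle, each from only 3 samples. The log2 change was 0.061 ± 0.017 (SE, edgeR adjusted p = 0.0126), with an interval from 1.83% to 6.86%, and it held without vehicle replicate 1 (0.062, adjusted p = 0.0333). The call ended without rhSP-D replicate 2 (log2 change 0.056, adjusted p = 0.0548) or vehicle replicate 3 (0.058, adjusted p = 0.0601), and with library totals alone (0.020, adjusted p = 0.463). After the length and GC correction it was 0.011 (adjusted p = 0.758), and -0.014 (adjusted p = 0.708) when the correction used the coding transcript. Exons of the opposite-strand gene AC005722.3, which had at most 1 count in any library, overlap it over 98 nt.

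In 6 of the 10 genes the groups did not overlap, 5 with rhSP-D higher and 1 with rhSP-D lower, beside 31.5% of all genes tested in either direction. That share was not taken over abundant genes alone, where calls were more frequent, so no excess can be read from it. Of the 5 calls, those of AKR1B1, AKR1C1 and CBR1 held with each library left out in turn, and those of AKR1C2 and ALDH3A1 did not. With library totals alone, the calls of AKR1B1 and AKR1C1 held.

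**Figure D4:**
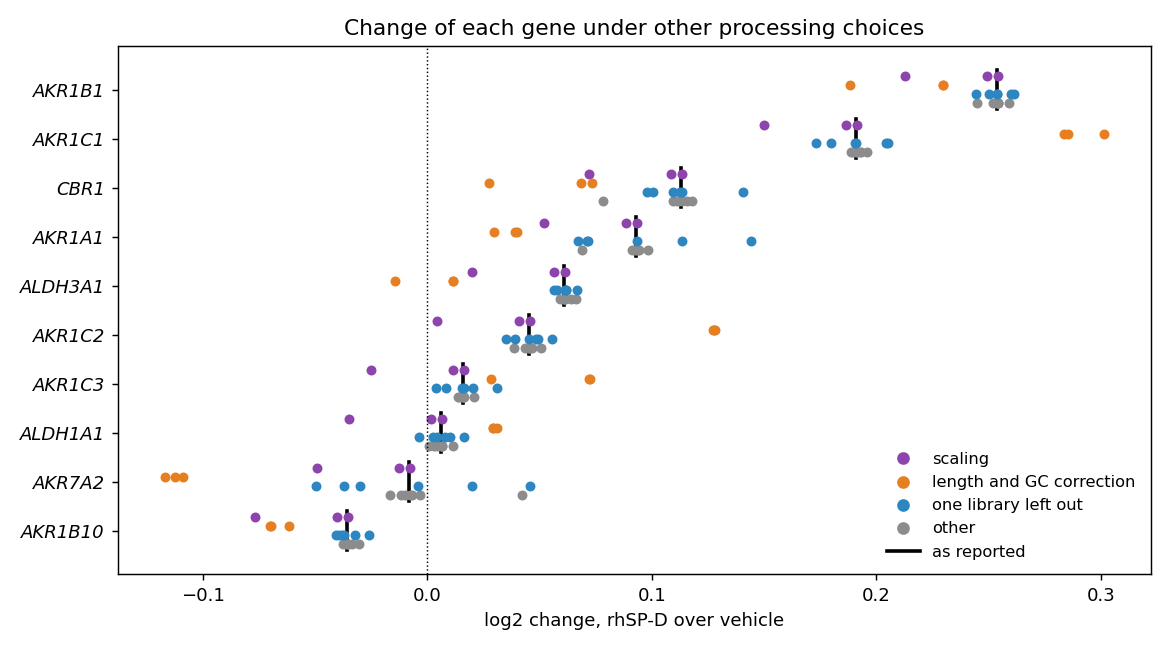
Log2 change of each gene, rhSP-D over vehicle, as reported (black line) and under the alternatives (points, coloured by kind). AKR1B1 and AKR1C1 lie above 0 in all, at 0.19 to 0.26 and 0.15 to 0.30. ALDH3A1, AKR1C3, ALDH1A1 and AKR7A2 lie on both sides of 0 under some alternative.

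Genes of related function were described from lists chosen with earlier results of these data known, and their counts of calls stand beside 9.31% higher and 6.63% lower, or 15.9% in all, over all genes tested. Counts at an unadjusted p under 0.05 stand beside 4453 of all 15848 genes tested. Among 9 other aldo-keto reductase genes that were matched, 8 were tested and 0 passed with edgeR, DESeq2 or limma-voom, with 1 at an unadjusted p under 0.05. They include the potassium channel beta subunits KCNAB1, KCNAB2 and KCNAB3, which share the fold, and AKR1E2. KCNAB2 was at 17.1 ± 0.719 CPM in rhSP-D and 16.0 ± 0.959 CPM in vehicle (SD, n = 3), and KCNAB1 at 0.581 ± 0.225 CPM in rhSP-D and 0.516 ± 0.0815 CPM in vehicle. KCNAB3, the gene with the low unadjusted p, had 75, 54 and 80 counts in rhSP-D and 27, 50 and 44 in vehicle, without overlap in CPM. AKR1E2 had 141, 93 and 95 counts in rhSP-D and 66, 108 and 85 in vehicle. The list had a median log2 change of 0.094, and its summed level was 50.5 to 50.8 CPM in rhSP-D and 46.6 to 49.6 CPM in vehicle. AKR1D1, the steroid 5-beta-reductase, had 3, 0 and 1 counts in rhSP-D and 0 in each vehicle library, below what these depths can measure. At these low levels the intervals were wide.

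Of 12 tested carbonyl reductases and relatives 2 rose and 1 fell, and these 3 became 1 without rhSP-D replicate 1 or vehicle replicate 3, with DESeq2 and with thinning. BLVRB, biliverdin reductase B, was measured at 308 ± 2.69 CPM in rhSP-D and 265 ± 6.46 CPM in vehicle (SD, n = 3), a rise of 16.1% (edgeR adjusted p = 5.72e-08). Its log2 change of 0.22 was 0.12 after the length and GC correction and 0.080 on coding transcripts, where it still passed (adjusted p = 0.0173). PTGR1, which inactivates leukotriene B4 and prostaglandins, rose by 4.78% (edgeR adjusted p = 0.0471), a call lost without any single library other than vehicle replicate 2, at log2 changes of 0.058 to 0.070 and adjusted p from 0.0784 to 0.178. That call was also lost with a replicate block (adjusted p = 0.0709), upper-quartile factors (0.0637), DESeq2 (0.112), thinning (0.120), library totals alone (log2 change 0.026, adjusted p = 0.485) and the coding-transcript correction (0.031, adjusted p = 0.473). DHRS2 fell by 22.7% (edgeR adjusted p = 0.0136), a call lost without rhSP-D replicate 1 (log2 change -0.34, adjusted p = 0.0762) or vehicle replicate 3 (-0.29, adjusted p = 0.128), with thinning (adjusted p = 0.0568) and with a replicate block and the length and GC correction (0.0585). DESeq2 did not call DHRS2 either.

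Among 15 other aldehyde dehydrogenases tested 2 rose and 1 fell, near the share over all genes, and 6 were called with library totals alone. ALDH2, the mitochondrial enzyme that clears acetaldehyde, was at 296 ± 8.18 CPM in rhSP-D and 269 ± 1.78 CPM in vehicle (SD, n = 3), a rise of 9.88% (edgeR adjusted p = 9.37e-05). Its log2 change of 0.14 was 0.21 after the length and GC correction and 0.23 on coding transcripts. ALDH1B1, also mitochondrial, was at 44.4 ± 0.373 CPM in rhSP-D and 39.0 ± 0.882 CPM in vehicle (SD, n = 3), a rise of 0.19 on the log2 scale (edgeR adjusted p = 0.00438). ALDH5A1, which oxidises succinic semialdehyde, fell by 11.5% (edgeR adjusted p = 0.0189), a call lost without rhSP-D replicate 1 or 3 or vehicle replicate 1 or 3, at log2 changes of -0.19 to -0.15 and adjusted p from 0.0509 to 0.119. It was also lost with DESeq2 (adjusted p = 0.0984), thinning (0.101) and the length and GC correction (0.0904, and 0.126 with the block as well). None of 4 alcohol dehydrogenases passed with edgeR, DESeq2 or limma-voom, and 1 had an unadjusted p under 0.05. With each length and GC correction, and without vehicle replicate 2, 1 of the 4 was called. The most abundant, ADH5, was at 98.4 ± 2.43 CPM in rhSP-D and 91.99 ± 4.05 CPM in vehicle (SD, n = 3), and ADH6 had 9.72, 8.997 and 11.8 CPM in rhSP-D and 8.999, 10.3 and 12.2 CPM in vehicle.

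Of 26 NRF2 targets tested 8 rose and 4 fell, a median log2 change of 0.025 beside -0.0063 over all genes. Most were abundant: of 22 at 100 CPM or more, 8 rose and 3 fell, beside 38.9% higher and 12.5% lower of all genes in that range. The 12 calls became 8 after each length and GC correction. HMOX1, heme oxygenase 1, rose by 18.5% (edgeR adjusted p = 3.12e-08), TXN, thioredoxin, by 12.8% (adjusted p = 2.01e-06) and TKT, transketolase, by 8.42% (adjusted p = 8.66e-07). SLC7A11, the cystine importer, was at 195 ± 3.82 CPM in rhSP-D and 228 ± 4.61 CPM in vehicle (SD, n = 3), and fell by 14.3% (edgeR adjusted p = 1.61e-07). The log2 change of SLC7A11, -0.22, was -0.12 after the length and GC correction, and that of TKT, 0.12, was 0.076 with library totals alone. Of 8 NRF2 regulators 0 passed with edgeR, 0 with DESeq2 and 1 with limma-voom. By edgeR 5 were at an unadjusted p under 0.05, 3 higher and 2 lower, beside 4453 of all 15848 genes tested. Without vehicle replicate 1, and with library totals alone, 2 were called, and 1 without rhSP-D replicate 3. NFE2L2, the gene of NRF2, was at 76.2 ± 1.72 CPM in rhSP-D and 77.4 ± 2.48 CPM in vehicle (SD, n = 3; log2 change -0.031, edgeR adjusted p = 0.643), and KEAP1 at 89.8 ± 2.60 CPM in rhSP-D and 86.4 ± 2.66 CPM in vehicle (log2 change 0.059, adjusted p = 0.292). SQSTM1, which competes with NRF2 for KEAP1, and MAFK, a small MAF partner of NRF2, were the most abundant regulators, at 1122 ± 16.2 and 1030 ± 29.1 CPM in rhSP-D and 1090 ± 22.7 and 998 ± 15.7 CPM in vehicle (SD, n = 3). NRF2 is controlled mostly at the protein level, which was not analysed here.

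The calls in pathways that the enzymes feed stand beside 15.9% of all genes tested, and no difference from that share was tested. Of 4 genes of the polyol pathway and methylglyoxal clearance 1 passed: HAGH, which hydrolyses the product of glyoxalase, rose by 19.0% (edgeR adjusted p = 1.32e-04). Of 18 retinoid genes 2 rose and 0 fell. DHRS3, which reduces retinaldehyde to retinol and is induced by retinoic acid, rose by 12.2% (edgeR adjusted p = 2.64e-05), and RDH14 rose by 17.3% (adjusted p = 0.00332, but 0.0554 with a replicate block and the length and GC correction). Of 16 genes of prostaglandin and steroid conversion 2 rose and 1 fell. PTGES, a prostaglandin E synthase, rose by 13.1% (edgeR adjusted p = 6.33e-06) and HSD17B10, a mitochondrial dehydrogenase, by 16.5% (adjusted p = 6.62e-06), while the cyclooxygenase PTGS2 fell by 14.8% (adjusted p = 8.88e-04, but 0.0502 with the coding-transcript correction). In the aryl hydrocarbon receptor list, whose factor can induce ALDH3A1, 1 of 6 genes fell, CYP1B1, by 15.0% (edgeR adjusted p = 1.29e-04), and 0 rose. Without rhSP-D replicate 3, 2 of the 6 were called. After the length and GC correction the log2 change of PTGES was 0.094 against 0.18 as reported, and that of HSD17B10 was 0.10 against 0.22. On coding transcripts that of DHRS3 was 0.10 against 0.17, and that of CYP1B1 was -0.14 against -0.23.

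**Figure D5:**
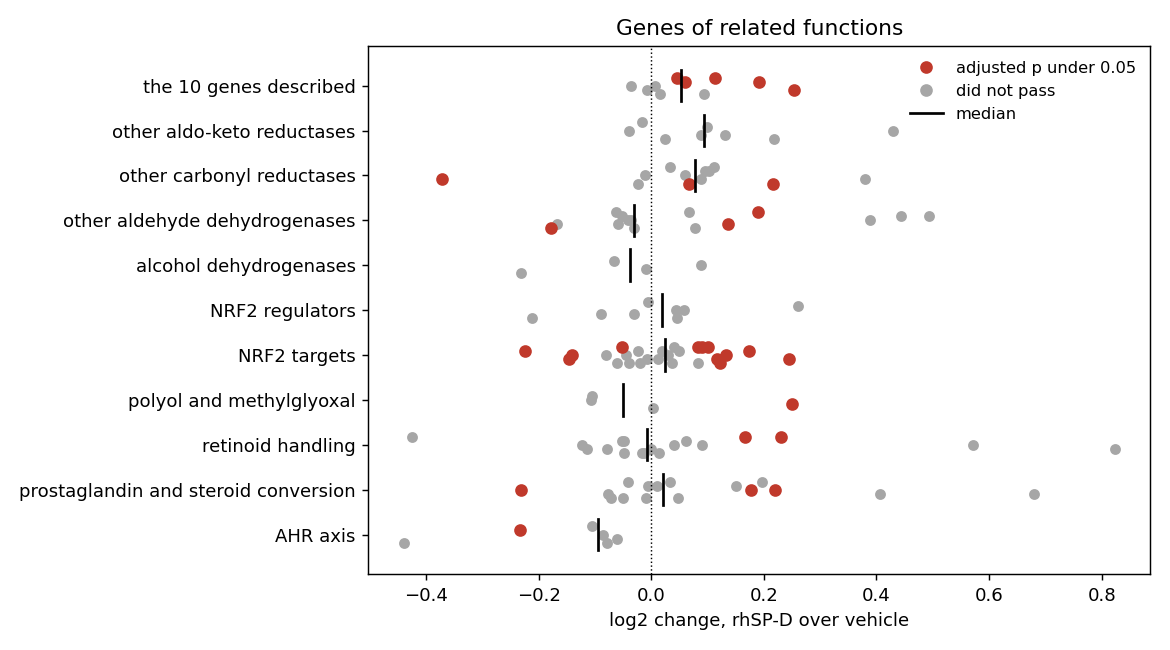
Log2 change, rhSP-D over vehicle, of each tested gene in the 10 genes described and in 10 lists of related function (points). Red points passed at an adjusted p under 0.05, and black lines are medians. NRF2 targets lie on both sides of 0, with 8 higher and 4 lower, and the genes farthest from 0 in the other lists mostly did not pass.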

How the data were processed

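Poly(A) RNA of 6 A549 samples was sequenced. Cutadapt, STAR (2.7.0a), featureCounts (2.0.0) and the build GRCh38 are named, without their settings, in the processing notes of the submitters. The authors deposited raw counts, whole numbers for each gene and sample, in a single table, and samples were grouped by title. Whether replicates were separate cultures is not stated in the labels, and p-values therefore reflect variation among these samples, which may be technical. Counts of any 2 libraries differed by more than sampling noise, with a chi-square per degree of freedom of 1.90 to 2.13 for libraries of the same group and 3.71 to 5.77 across groups.

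The counts were tested with edgeR 4.0.16 (R 4.3.3) after filterByExpr (minimum count 10, minimum total 15) and TMM scaling, by a robust quasi-likelihood test, 2-sided, with Benjamini-Hochberg adjustment. "Rose" and "fell" are used at an adjusted p under 0.05. Log2 changes divide rhSP-D by vehicle, and their SE and 95% intervals come from the test statistic. CPM use TMM-scaled library sizes. Alternatives were other scalings (DESeq2 size factors, upper quartile, totals), filters (none, 1 CPM), a replicate block, removal of mitochondrially encoded genes, thinning, DESeq2 1.42.0, limma-voom (limma 3.58.1), a threshold of 0.01, each library left out, and splines with 5 degrees of freedom on gene length and GC content as offsets, for the genes in GENCODE 29 (96.8% of those tested). The correction on coding transcripts and the levels per coding length were chosen after the data had been seen. The ratio of AKR1B1 to AKR1B10, the share of AKR1C1 and the permutation tests were not planned in advance. On simulated data of this comparison over 15590 genes the test recovered 24%, 64%, 98% and 100% of genes changed 1.1, 1.2, 1.5 and 2-fold. Only 50 genes were changed at each fold, while 2526 were called in the data, and they were not matched in level to the 10 genes. These rates need not hold for the 10 genes.

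The genes and lists were chosen with earlier results of these data known. Named were all 10 genes, their scarce relatives, NFE2L2 and KEAP1, the 4 smallest p among called genes of each list, or the 2 most abundant genes of a list with no call. AKR1C8P and PECAM1 were not matched in the table.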

Additional observations from a re-analysis of the deposited data

How the results depend on the processing

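AKR1B1 and AKR1C1 kept their direction and passed under all 20 alternatives run. Over the 10 genes, 164 of the recomputed values kept direction and side of the threshold, 21 lost the call, 8 gained one and 7 changed sign. Against 5 higher and 0 lower, library totals alone gave 2 higher and 1 lower of the 10 genes, the coding-transcript correction 3 and 1, thinning 3 and 0, and a threshold of 0.01 3 and 0. The lower count was also 1 with limma-voom, with the length and GC correction, and with that correction and a replicate block. Leaving out 1 library gave 3 to 6 higher and 0 lower. A replicate block alone left 4 of 10 higher, ended the call of AKR1C2 (adjusted p = 0.0765) and called 1374 genes higher and 945 lower overall. Same-numbered samples did not deviate together (correlations -0.079, -0.068 and 0.027), and 2 of 6 correlated best with their own number, so the numbers were not treated as pairs.

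Changes of sign, none of them past the threshold, were AKR1C3 (-0.025) and ALDH1A1 (-0.035) with library totals alone, ALDH1A1 without rhSP-D replicate 3 (-0.0036), ALDH3A1 with the coding-transcript correction (-0.014), and AKR7A2 with thinning (0.042), without rhSP-D replicate 2 (0.046) or vehicle replicate 2 (0.020). With 1 library left out, AKR7A2 ranged from -0.050 to 0.046 and ALDH1A1 from -0.0036 to 0.016. NFE2L2 was at 0.025 with the length and GC correction, 0.0084 on coding transcripts, 0.031 with the block as well, and 0.029 when thinned. The cause was not tested.

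Over all genes, 1475 higher and 1051 lower became 856 and 1961 with library totals alone (30.4% higher, against 58.4%), 939 and 588 thinned, 939 and 526 at 0.01, and 965 and 362 with the coding-transcript correction. Lower calls numbered 429 with the length and GC correction, 360 with the block as well, and 510 with DESeq2. With 1 library left out they ranged from 636, without rhSP-D replicate 1, to 892, and were 643 without vehicle replicate 3, while higher calls ranged from 1042 to 1336. The corrections raised the share of higher calls to 74.8%. AKR7A2 and AKR1A1 had the fewest counts of the 10 genes, 517 to 1890 a library. Thinning to the shallowest library ended the calls of CBR1 and AKR1C2.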
